A study of Mus musculus with 6 samples.

Results

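YAP and TAZ are transcriptional coactivators that bind the TEAD factors, and they are held in the cytoplasm when the Hippo kinases phosphorylate them. The genes of this group are Yap1 (YAP), Wwtr1 (TAZ), the 4 TEAD genes Tead1 to Tead4, and 4 genes widely used as readouts of the complex: Cyr61 and Ctgf, which encode secreted matrix-associated proteins of the CCN family, Ankrd1, a nuclear ankyrin-repeat protein, and Amotl2, an angiomotin that in turn binds YAP. They were picked by symbol, and all 10 were found among the 24419 symbols of the table. In the brain YAP and TAZ are known chiefly from astrocytes, vascular cells, fibroblasts and neural stem cells, and mature neurons are known for having little YAP. Most of the YAP and TAZ response is known to follow cell stretch, matrix stiffness and the actin cytoskeleton, and the pathway's own brakes are among its targets.

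RNA was sequenced from cells of the peri-infarct cortex of male wild type C57BL/6N mice, 4 days after the middle cerebral artery was blocked for 60 min. One group of animals had received vehicle and the other 600 ng of 15-HETrE, a hydroxylated fatty acid, with injections into a vein at 24, 48 and 72 h in 150 µL of PBS. The stroke was common to both groups, so there is no uninjured control. Cells were sorted as Thy1-positive and negative for ACSA2, CD31, CD45 and O4, a gate described as enriching neurons; Thy1 is also known from fibroblasts. Each group had 3 libraries: vehicle 1, vehicle 2 and vehicle combined, and 15-HETrE 1, 15-HETrE unnumbered and 15-HETrE combined, named after the columns of the table. No source used here says what "combined" stands for or that the libraries came from separate animals, so p-values measure only the spread among libraries, possibly a technical one.

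Sequencing gave 5405245 to 22558400 reads per library assigned to genes, fewest in vehicle combined and 15-HETrE combined (7993084). Levels are given as scaled CPM, which is the read count per 1e+06 reads after a size factor for each library, applied by the authors. Neuronal markers were present in every library (12 pan-neuronal genes summed to 2157 to 6714 CPM), but so were those of oligodendrocytes (8 genes, 15556 to 32179 CPM). Fibroblast markers differed widely between libraries: their 10 genes summed, in CPM, to 12756 in vehicle 1, 10360 in vehicle 2 and 1473 in vehicle combined, and to 1227, 2210 and 1284 in 15-HETrE 1, unnumbered and combined. Vehicle combined thus stood apart from the other vehicle libraries, and values without it are given below. In RNA from sorted pools, fewer cells of a type and less RNA per cell cannot be told apart.

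No gene of the table passed the test with all 6 libraries: 0% of 14523 genes kept at a mean of at least 1 CPM were higher or lower at an adjusted p of 0.05 (limma, two-sided). Of the 10 genes, 9 were kept and Tead4 was not; Tead2 and Ankrd1 were kept through their vehicle values. Of these 9, 8 had a negative log2 fold change (15-HETrE minus vehicle on log2(CPM + 1)) and only Amotl2 a positive one, where 49.0% of all genes kept were negative. The median of the 9 was -1.65, against 0.02 over all genes. Ankrd1 already lay below that median, so placing it at its lower bound could not change the median. Wwtr1, Tead1 and Ctgf had an unadjusted p under 0.05 on the lower side, as did 5.23% of all genes. Of the 9, 1 gene had groups without overlap, Tead1, where 8.32% of all genes did not overlap on the lower side and 6.84% on the higher side. In 9 of the 10 genes the highest library was vehicle 1 (4 genes) or vehicle 2 (5 genes).

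**Figure D1:**
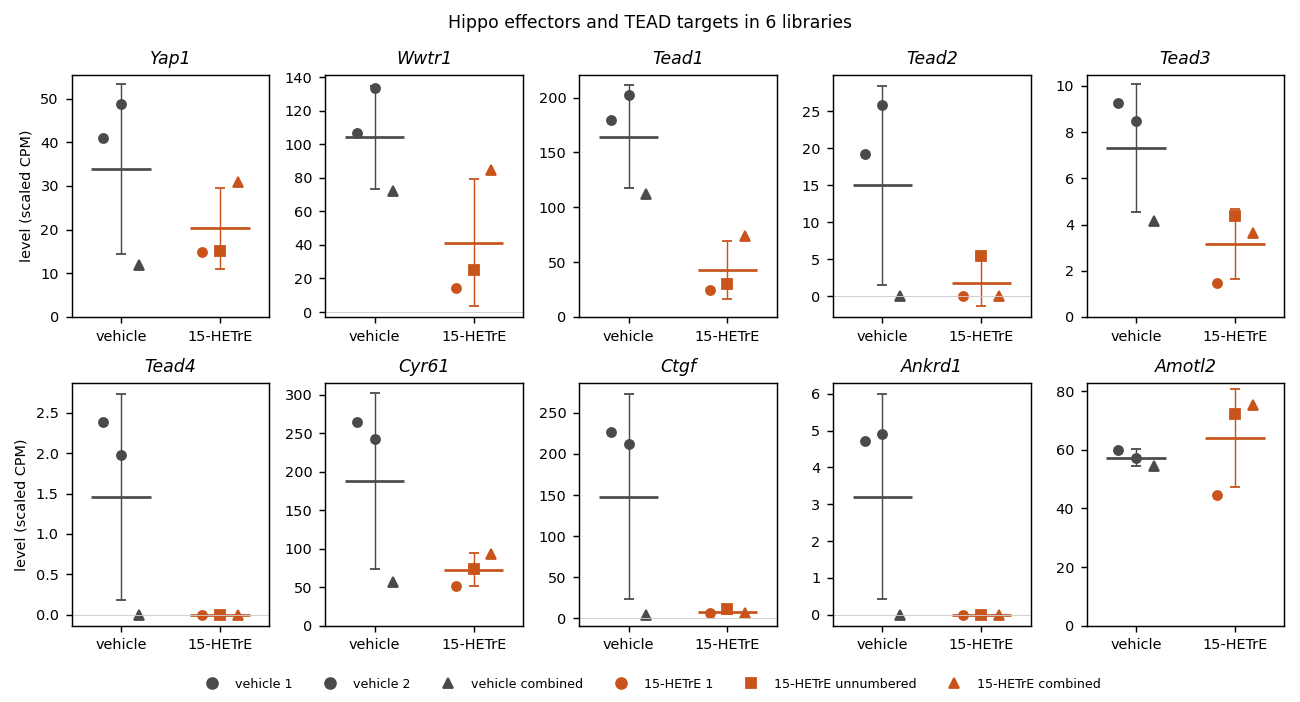
Level of each of the 10 genes in scaled CPM (y axis, a scale for each gene) in the 3 vehicle and 3 15-HETrE libraries (points; circles, squares and triangles are the 3 kinds of column name), with the group mean (wide line) and SD (whisker). Vehicle 1 and vehicle 2 are the highest for every gene but Amotl2, and vehicle combined lies near the 15-HETrE libraries for Ctgf, Cyr61 and Yap1 but not for Tead1.

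The coactivator genes were lower in most 15-HETrE libraries without a full separation of the groups. Yap1 (chromosome 9, 7931999 to 8004596, GRCm38) had 41.0 CPM in vehicle 1, 48.9 in vehicle 2 and 11.9 in vehicle combined, and 14.9, 15.0 and 31.0 CPM in 15-HETrE 1, unnumbered and combined. The lowest level of all was in a vehicle library, on 66 reads, and the groups overlapped. Its log2 fold change was -0.57 (SE 0.56, 95% interval -1.82 to 0.67, adjusted p 0.761, limma).

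Wwtr1, whose product TAZ shares its partners with YAP, lies on chromosome 3 (57455649 to 57575910) and had 107, 134 and 72.3 CPM in the vehicle and 14.4, 25.2 and 84.3 CPM in the 15-HETrE libraries, in the same order. Its 15-HETrE libraries were the more uneven, with 15-HETrE combined above vehicle combined and the others far below. The log2 fold change was -1.65 (SE 0.55, 95% interval -2.87 to -0.43, adjusted p 0.454, limma). Per kb of exon, Wwtr1 exceeded Yap1 in each library, by a ratio of 5.05, 5.29 and 11.8 in the vehicle and 1.87, 3.24 and 5.28 in the 15-HETrE libraries. The ratio does not depend on how the libraries were scaled, and its groups overlapped.

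Among the DNA-binding partners, Tead1 was the most abundant and had the smallest p of the group. Tead1 (chromosome 7, 112679318 to 112906807) had 179, 202 and 112 CPM in the vehicle libraries and 24.6, 30.2 and 73.5 CPM in the 15-HETrE libraries. All vehicle libraries lay above all 15-HETrE libraries, at 164 ± 46.9 and 42.8 ± 26.8 CPM (SD, n = 3 per group). The log2 fold change was -2.04 (SE 0.41, 95% interval -2.96 to -1.12), and its adjusted p was 0.334 (limma) and 0.468 (edgeR quasi-likelihood). DESeq2 called Tead1 at an adjusted p of 0.00759, the only gene of the 9 it called, where it called 0.895% of all genes lower; edgeR called 0% lower. Column names are of 3 kinds: a first prefix, a second prefix, and names with "combined" in place of a prefix. No source used here says that libraries of a kind shared a batch or were paired. In the first prefix, 15-HETrE 1 against vehicle 1 and 2, Tead1 had a difference of -2.90. Between the combined libraries, called the combined pair below, the difference was -0.60.

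The other TEAD genes were scarce. Tead2 (chromosome 7, 45215753 to 45233644) had 410, 576 and 0 reads in the vehicle and 2, 91 and 0 reads in the 15-HETrE libraries, or 19.2, 25.9 and 0 against 0.0911, 5.43 and 0 CPM. It was thus present in vehicle 1, vehicle 2 and 15-HETrE unnumbered, in which fibroblast markers were highest, and nearly or fully absent from the rest. Its exons share bases with those of Cd37, a leukocyte tetraspanin gene on the opposite strand, which stood at 0, 0 and 5.22 CPM in the vehicle and 0.137, 0 and 2.43 CPM in the 15-HETrE libraries; no source used here says whether the counting used strand, so the assignment between them is uncertain. For Tead2 limma gave a log2 fold change of -2.09 with an SE of 1.25 and an adjusted p of 0.625.

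Tead3 (chromosome 17, 28331671 to 28350817) had 9.26, 8.50 and 4.14 CPM in the vehicle and 1.46, 4.36 and 3.65 CPM in the 15-HETrE libraries. For Tead3 limma gave -1.01 on the log2 scale, with an SE of 0.64 and an adjusted p of 0.641. Its groups overlapped at vehicle combined and 15-HETrE unnumbered, on 23 and 73 reads. Tead4 (chromosome 6, 128224288 to 128300823) had 51 reads in vehicle 1, 44 in vehicle 2 and none in the other 4 libraries, vehicle combined included. Pooled over each group, its reads were at least 29.7-fold lower in 15-HETrE, against a floor of 3 reads over the group. That bound rests on vehicle 1 and 2 alone and does not cover the spread between libraries. Per kb, Tead1 made up 68.6, 67.3 and 93.0% of the 4 TEAD genes in the vehicle and 88.5, 55.5 and 90.9% in the 15-HETrE libraries. Tead2 supplied most of the remainder in vehicle 1, vehicle 2 and 15-HETrE unnumbered (20.8, 24.5 and 28.3%).

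The target genes are shown with the 250 bases before their RefSeq start (GRCm38.p6), because GGAATG, the core of the motif that TEAD factors bind, is found there. Capitals mark GGAATG or its complement CATTCC, and each sequence is written 5′ to 3′ on the strand of its gene. The windows are chr3:145649986-145650235 (minus strand) for Cyr61, chr19:36119845-36120094 (minus strand) for Ankrd1 and chr9:102717554-102717803 (plus strand) for Amotl2; the table holds no window for Ctgf, Tead1 or Tead4.
Cyr61: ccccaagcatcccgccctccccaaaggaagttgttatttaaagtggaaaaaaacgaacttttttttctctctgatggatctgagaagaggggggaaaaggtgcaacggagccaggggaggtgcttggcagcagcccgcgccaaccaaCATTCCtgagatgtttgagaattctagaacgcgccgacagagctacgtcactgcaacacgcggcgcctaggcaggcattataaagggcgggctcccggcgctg
Ankrd1: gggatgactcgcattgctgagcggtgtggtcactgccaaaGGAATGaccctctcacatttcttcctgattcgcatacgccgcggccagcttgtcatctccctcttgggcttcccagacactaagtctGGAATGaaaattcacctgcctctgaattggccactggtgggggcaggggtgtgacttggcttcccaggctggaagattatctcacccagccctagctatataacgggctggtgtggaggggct
Amotl2: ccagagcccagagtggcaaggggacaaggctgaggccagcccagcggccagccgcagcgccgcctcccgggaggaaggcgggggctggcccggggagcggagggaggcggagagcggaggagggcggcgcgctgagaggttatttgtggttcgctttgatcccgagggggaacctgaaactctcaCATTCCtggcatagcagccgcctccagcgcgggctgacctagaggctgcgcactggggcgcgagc

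The motif begins 103 bases before the start of Cyr61, 210 and 123 bases before that of Ankrd1 and 65 bases before that of Amotl2. Of the 7 genes with a window, 6 held GGAATG on either strand, Yap1, Wwtr1 and Tead3 among them and Tead2 not; some of these genes have up to 3 starts, each searched. It was held by 14.4% of 27025 genes and by 12.6% of 32851 windows of this length. The CArG box, the motif of the actin-regulated factor SRF, was in none of the 7 and in 1.62% of genes. Cyr61 and Ankrd1, with low levels in 15-HETrE libraries, and Amotl2, without, held the TEAD motif alike, and the match says nothing of binding.

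Ctgf had the widest range of the targets. Ctgf (Ccn2 in newer annotation, chromosome 10, 24595442 to 24598683) had 227 CPM in vehicle 1, 213 in vehicle 2 and 4.32 in vehicle combined. In 15-HETrE 1, unnumbered and combined it had 5.74, 11.1 and 5.95 CPM. Vehicle 1 and 2 were thus far above the 15-HETrE libraries, while vehicle combined, on 24 reads, was the lowest of all. With all libraries the log2 fold change was -2.95 (SE 1.19, 95% interval -5.59 to -0.30, adjusted p 0.494, limma). Without vehicle combined limma gave -4.74, and the adjusted p was then 0.00504. The first-prefix difference of Ctgf was -5.03 and the combined-pair difference 0.39, so the directions were opposite.

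Cyr61 (Ccn1, chromosome 3, 145646976 to 145649981), the closest relative of Ctgf in the group, kept a higher level in every library. It had 265, 243 and 56.6 CPM in the vehicle and 51.3, 73.8 and 93.4 CPM in the 15-HETrE libraries, and vehicle combined lay within the 15-HETrE range. The log2 fold change was -1.11 (SE 0.52, 95% interval -2.28 to 0.05, adjusted p 0.552, limma), and -1.83 without vehicle combined (adjusted p 0.0371, limma). Per kb, Cyr61 exceeded Ctgf by 1.65 and 1.62 times in vehicle 1 and 2, by 18.6 times in vehicle combined and by 12.7, 9.42 and 22.3 times in the 15-HETrE libraries. The ratio within a library thus separated vehicle 1 and 2 from all others.

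Ankrd1 (chromosome 19, 36111961 to 36120099), best known from heart and muscle under load, had reads in vehicle 1 (101 reads, 4.72 CPM) and vehicle 2 (109 reads, 4.90 CPM) and in no other library. A count of 0 allows up to 0.540 CPM in vehicle combined, the shallowest library, and up to 0.137, 0.179 and 0.405 CPM in 15-HETrE 1, unnumbered and combined (3 reads each, counting error only). Pooled over each group, its reads were at least 65.6-fold lower in 15-HETrE. That bound rests on vehicle 1 and 2 alone and does not cover the spread between libraries, as vehicle combined had 0 reads too. Its fitted log2 fold change of -1.69 (adjusted p 0.574, limma) depends on the pseudocount.

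Amotl2 (chromosome 9, 102716672 to 102733418) did not share this pattern. It had 60.1, 57.3 and 54.3 CPM in the vehicle and 44.6, 72.1 and 75.3 CPM in the 15-HETrE libraries, with the vehicle libraries inside the range of the others. Its log2 fold change was 0.12 (SE 0.29, 95% interval -0.53 to 0.77, adjusted p 0.915, limma), which still allows a change of moderate size in either direction. The direction was negative in 4 of the alternative fits.

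Per kb of exon, so that genes can be compared, the vehicle means ran from Cyr61 (93.2 ± 56.6 CPM per kb) through Ctgf (51.7 ± 43.6), Wwtr1 (21.8 ± 6.42), Tead1 (12.1 ± 3.45), Amotl2 (9.10 ± 0.458), Yap1 (3.66 ± 2.11), Tead2 (3.14 ± 2.81), Ankrd1 (1.11 ± 0.963) and Tead3 (1.09 ± 0.412) to Tead4 (0.404 ± 0.355; SD, n = 3). Of the neighbours in this order, Wwtr1 and Tead1, and Amotl2 and Yap1, did not overlap between libraries, and the other neighbours did. In 15-HETrE, Cyr61 (36.1 ± 10.4 CPM per kb) stood above Amotl2 (10.2 ± 2.68) without overlap. Wwtr1 (8.64 ± 7.88), Tead1 (3.15 ± 1.97), Ctgf (2.65 ± 1.06) and Yap1 (2.19 ± 0.996) followed, each overlapping its neighbour, and Tead3 (0.470 ± 0.225) lay below Yap1 without overlap. Cyr61 had the highest mean in both groups.

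**Figure D2:**
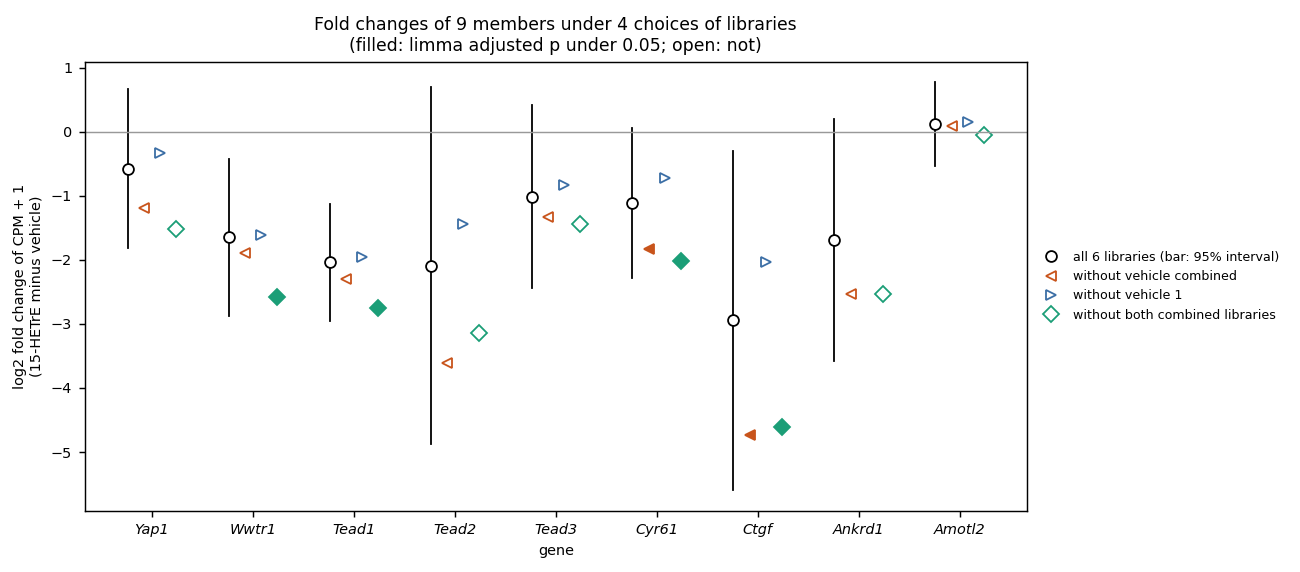
Log2 fold change of CPM + 1 (y axis, 15-HETrE minus vehicle) of the 9 kept genes with all 6 libraries (circles, bar for the 95% interval), without vehicle combined, without vehicle 1 and without both combined libraries; filled points have a limma adjusted p under 0.05. With all libraries every point is open, without vehicle combined Ctgf and Cyr61 are filled, and without both combined libraries Wwtr1 and Tead1 are filled as well; Ankrd1 fell under the filter without vehicle 1.

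Without library weights, limma called genes of this group only where vehicle combined was left out, alone or with 15-HETrE combined. Leaving out any other single library, 15-HETrE combined included, gave 0 genes called lower. The adjusted p of Ctgf (limma) then ran from 0.509 without 15-HETrE unnumbered to 0.912 without vehicle 2. Without vehicle combined, limma called 2 of the 9 genes lower, Ctgf and Cyr61, where 0.743% of all genes were called lower. Tead1 then had -2.29 (adjusted p 0.0576, limma), Wwtr1 -1.89 (0.195), Yap1 -1.18 (0.217), Tead2 -3.60 (0.0919) and Tead3 -1.32 (0.340), none of them called. Without both combined libraries it called Ctgf, Cyr61, Wwtr1 (-2.59, adjusted p 0.0255) and Tead1 (-2.76, adjusted p 0.0129), 4 of the 10 genes then kept, where 1.38% of all genes were called lower. With library weights it called 8 of the 9, all but Amotl2, where 9.41% of all genes were called lower. Within the combined pair alone, 15-HETrE combined was the higher for Yap1 (1.31 on the log2 scale), Cyr61 (0.71), Amotl2 (0.46), Ctgf (0.39) and Wwtr1 (0.22). Only Tead1 and Tead3 (-0.14) were lower there, and Tead2, Tead4 and Ankrd1 had no reads in either. In the first prefix all 10 were lower, from -0.39 for Amotl2 to -5.03 for Ctgf. The second prefix held only 15-HETrE unnumbered and gave no difference.

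Fibroblast, pericyte and endothelial markers were mostly lower, as these genes were, whereas astrocyte and pan-neuronal markers were mostly higher. Oligodendrocyte markers were higher for 6 of 8 (median 0.09, and -0.19 without 15-HETrE unnumbered). Microglia markers, with Aif1 and Ptprc at 0 in some libraries, were higher for 5 of 9 kept (median 0.22, and -0.34 without vehicle 1). Fibroblast markers were lower for 9 of 9 kept, with a median log2 fold change of -2.30 that was -0.71 without vehicle 1, -0.87 without vehicle 2, -3.73 without 15-HETrE unnumbered, -1.51 without 15-HETrE combined and -4.67 without vehicle combined. They had Postn and Mfap5 at 0 in some libraries and mean differences of -4.64 in the first prefix and -0.06 in the combined pair. Pdgfra, which oligodendrocyte precursors also express, made up most of their sum in vehicle combined (1382 of 1473 CPM), 15-HETrE 1 (1035 of 1227) and 15-HETrE combined (1228 of 1284). Without Pdgfra, a choice made after the values were seen, the other 9 summed to 11878, 9354 and 91.0 CPM in the vehicle and to 192, 1782 and 55.7 CPM in the 15-HETrE libraries. Ctgf was also highest in vehicle 1 and 2 and, at 11.1 CPM, next in 15-HETrE unnumbered. Pericyte and smooth muscle markers were lower for 9 of 10 (median -1.06, and -0.64 without 15-HETrE 1), none at 0. Of the 10, 6 were lower at an unadjusted p under 0.05 and 5 without overlap, against 5.23% and 8.32% of all genes. None passed in limma (smallest adjusted p 0.394), and DESeq2 called 1 lower, where it called 0.895% of all genes lower. Their sum did not overlap, with 1118 to 1460 CPM in vehicle and 484 to 832 CPM in 15-HETrE, and Tead1 also did not overlap. Endothelial markers, with Tek, Tie1, Emcn and Erg at 0 in some libraries, summed to 133 to 244 CPM in vehicle and 56.7 to 124 CPM in 15-HETrE, and 8 of 11 kept were lower, with a median of -0.62 that was -0.01 without vehicle combined and -0.39 without 15-HETrE combined. Astrocyte markers, none at 0, were higher for 11 of 12 with a median of 1.02. That median was 0.15 without 15-HETrE combined, with 5 of 12 then lower, 0.40 without vehicle 2, 0.59 without vehicle 1, 1.55 without 15-HETrE unnumbered and 1.88 without vehicle combined. Their sum ran from 918 to 8615 CPM in vehicle and from 1643 to 22111 CPM in 15-HETrE, and the combined library had the most in each group. Wwtr1, Yap1, Tead1, Cyr61 and Amotl2 were also highest in the combined library within 15-HETrE. Within vehicle, each of these genes was lowest in the combined library. Pan-neuronal markers, none at 0, were higher for 11 of 12 (median 0.84, and 0.55 without 15-HETrE 1). Of the 12, 6 were higher at an unadjusted p under 0.05 (limma), as were 620 of all 14523 genes. The groups did not overlap for 3, where 6.84% of all genes did not overlap on the higher side. None passed in limma (smallest adjusted p 0.334). DESeq2 called Nefl, a neurofilament gene, higher (adjusted p 0.00627), 1 of the 12, where it called 35 of all 14523 genes higher. The mean difference of the pan-neuronal markers was 1.07 in the first prefix and 0.95 in the combined pair, and their sum was 2157 to 3774 CPM in vehicle and 3538 to 6714 CPM in 15-HETrE. The part of these cells in the levels of the 10 genes was not tested.

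**Figure D3:**
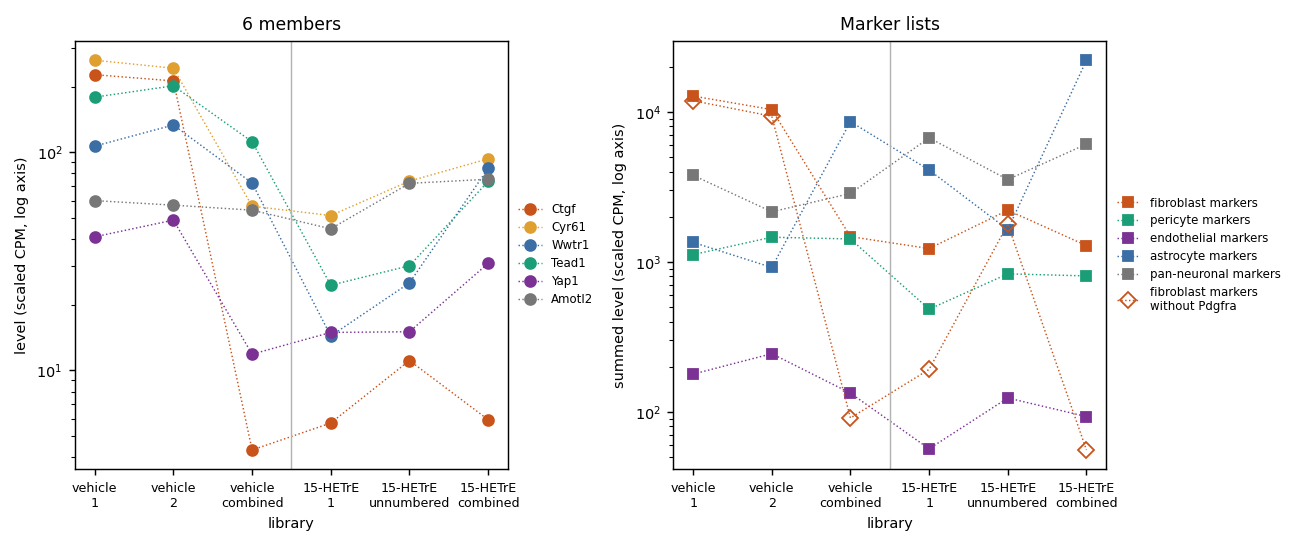
Left, level of 6 of the genes, and right, summed level of 5 marker lists and of the fibroblast list without Pdgfra (open diamonds), in each library (x axis), both in scaled CPM on a log axis; dotted lines only link the points of a gene or list, and the vertical line parts vehicle from 15-HETrE. Ctgf and the fibroblast markers are highest in vehicle 1 and 2, the fibroblast markers without Pdgfra are next highest in 15-HETrE unnumbered (1782 CPM), Tead1 and the pericyte markers are higher in all vehicle libraries, and the astrocyte markers peak in the combined libraries.

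The kinases and scaffolds that restrain YAP and TAZ were close to even. Of 21 genes, all kept, 12 were lower and 9 higher, with a median log2 fold change of -0.18, and 0 passed (limma, smallest adjusted p 0.551). Lats1, a kinase that phosphorylates YAP, had 120, 130 and 210 CPM in the vehicle and 101, 138 and 126 CPM in the 15-HETrE libraries; it was named here after its values were seen. By the smallest p, Dchs1, a giant cadherin, had a log2 fold change of -0.79, Rassf1, a scaffold of the MST kinases, of -0.96, Frmd6, a FERM-domain protein, of -0.54 and Fat4, the receptor of Dchs1, of -0.63. Among these genes named by p, the groups did not overlap only for Rassf1, at 26.6, 27.0 and 21.9 against 13.1, 6.80 and 20.8 CPM. Over the 21 genes, 2 did not overlap on the lower side (Stk3 and Rassf1) and 2 on the higher (Taok2 and Mink1). The shares over all genes were 8.32% and 6.84%.

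Genes whose products bind YAP, TAZ, TEAD or LATS were lower for 9 of 12 kept of 13, with a median of -0.39, and 0 passed (limma, smallest adjusted p 0.520). Vgll3, a TEAD cofactor, followed the pattern of Ctgf, with 24.96, 28.9 and 0 CPM in the vehicle and 0.455, 0.955 and 0 CPM in the 15-HETrE libraries. Its log2 fold change was -2.70 (adjusted p 0.520 in limma and 0.0333 in DESeq2). DESeq2 called 1 of the 12 lower, where it called 0.895% of all genes lower. Amotl1, an angiomotin like Amotl2, had 118, 138 and 99.3 against 46.3, 108 and 67.2 CPM, a log2 fold change of -0.75. Ajuba, a LIM protein that inhibits LATS, had 6.08, 4.81 and 10.3 against 0.911, 2.63 and 3.65 CPM without overlap, and its relative Limd1 had a log2 fold change of -0.57. Of the 12, 1 did not overlap on the lower side and 0 on the higher, against 8.32% and 6.84% of all genes.

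Of 18 further genes widely cited as YAP and TAZ targets, all kept, 15 were lower, with a median of -0.73. This list had 0 calls in limma (smallest adjusted p 0.353). Of the 18, 4 were lower at an unadjusted p under 0.05 (limma), as were 5.23% of all genes. Groups did not overlap for 6 genes on the lower side and 1 on the higher, against 8.32% and 6.84% of all genes. Myof, a membrane-repair ferlin, had 83.8, 95.6 and 40.8 CPM in the vehicle and 15.1, 7.997 and 0.135 CPM in the 15-HETrE libraries, the last on 1 read, and a log2 fold change of -3.67. F3, tissue factor, which starts coagulation, had 195, 175 and 99.3 against 30.7, 37.1 and 96.0 CPM. Ccdc80, a matrix protein, had 46.6, 28.2 and 12.4 against 4.78, 8.83 and 6.49 CPM, and Axl, a receptor tyrosine kinase, had 105, 138 and 121 against 34.9, 32.0 and 116 CPM. For Myof, F3 and Ccdc80 the groups did not overlap, and for Axl they did; DESeq2 called Myof (adjusted p 0.0255) and Ccdc80 (0.0468) lower, 2 of 18 where it called 0.895% of all genes lower. The mean over the list was -1.15 in the first prefix and -0.29 in the combined pair. Lats2 and Ptpn14 stand on this list and on those above.

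**Figure D4:**
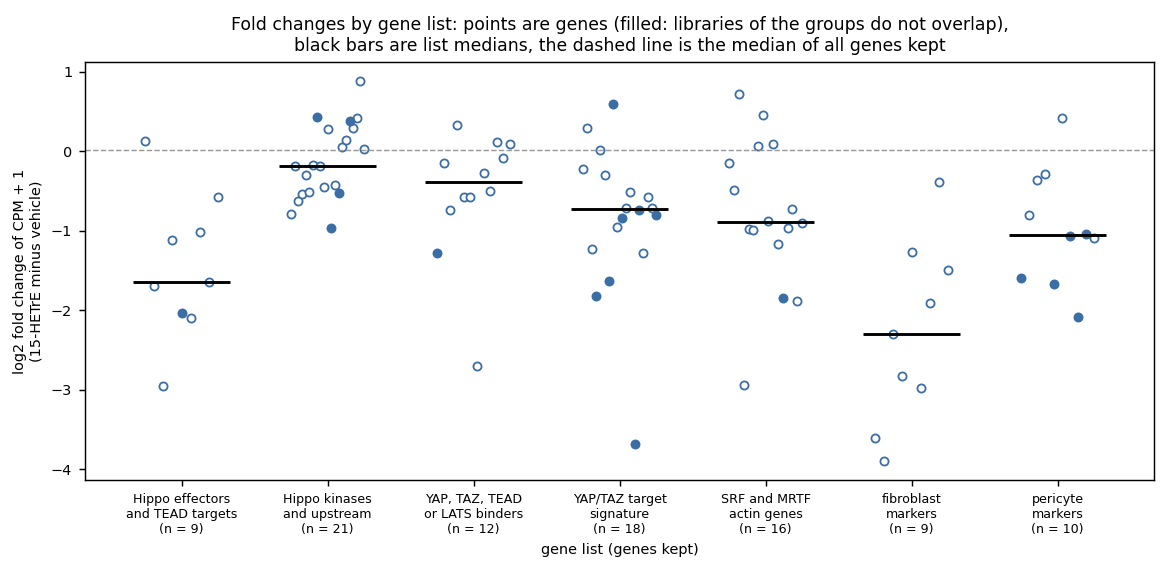
Log2 fold change of CPM + 1 (y axis, 15-HETrE minus vehicle) of the kept genes of 7 lists (points, ordered by name within a list; filled where libraries of the groups do not overlap), with list medians as black bars and the median of all genes dashed. The medians are -1.65 for the Hippo effectors and TEAD targets, -0.18 for the kinases, -0.73 for the further targets, -0.89 for the SRF genes and -2.30 for the fibroblast markers.

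Cyr61 and Ctgf are also known targets of SRF with its actin-sensing cofactors, so that route was read beside them. Of 16 SRF and MRTF genes, 12 were lower, and 0 passed (limma, smallest adjusted p 0.334). DESeq2 called 2 of the 16 lower, Tagln2 (adjusted p 0.00959) and Tpm4 (0.0333), where it called 0.895% of all genes lower. The median was -0.89, from -0.56 without 15-HETrE 1 to -1.52 without vehicle combined. Without vehicle combined limma called 3 genes of the list and 0.743% of all genes lower. Tagln2, an actin-binding protein, had 94.5, 130 and 54.5 CPM in the vehicle and 17.8, 37.9 and 19.3 CPM in the 15-HETrE libraries without overlap. Tpm4, a tropomyosin, had 395, 365 and 33.5 against 31.6, 81.1 and 36.2 CPM, with vehicle combined inside the 15-HETrE range. Cnn2, a calponin, had a log2 fold change of -2.94 and Vcl, vinculin, of -0.91. Of the other CCN genes, 2 of 4 were kept, Wisp1 with 54.2, 60.3 and 4.32 against 6.33, 13.8 and 5.95 CPM and Nov with 31.6, 13.8 and 38.8 against 42.1, 14.9 and 13.9 CPM, and neither passed (limma).

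The genes most like 3 of the members over the 6 libraries were found among 11516 others with a mean of at least 5 CPM, by Pearson's r on the log2 scale. For Yap1 they were Mdfic (r = 0.995), Hcfc1 (0.993) and Nrip1 (0.988). For Wwtr1 they were Ing5 (0.993), Fcgrt (0.989) and Glis3 (0.987), and for Cyr61 B4galt1 (0.993), Sh3gl1 (0.993) and Snx4 (0.992). With 6 libraries, of which vehicle 1 and 2 lie together, such values are a description only. Among the 10 genes themselves, Ctgf was closest to Ankrd1 (0.988) and Tead4 (0.987), which were read only in vehicle 1 and 2, and Wwtr1 to Tead1 (0.957). Amotl2 had an r of at most 0.35 with any other.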

How the data were processed

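RNA of 6 libraries was analysed, 3 per group. The build mm10 and the tools featureCounts, HISAT2, Trimmomatic and edgeR come from the submitters' processing notes; no source used here gives their versions or settings, the strand or the annotation. Values of the deposited table are a signal, CPM that the authors adjusted by a size factor, as its column sums of 960982 to 1080350 show. Every value (100%) was a whole multiple of the smallest within 1e-04 reads, so whole reads were recovered. Groups came from column names; 0 columns were left over.

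Genes at a mean of 1 CPM or more were fitted as log2(CPM + 1) (pseudocount 1) with limma 3.58.1 in R 4.3.3, with group as the only term, a variance trend and Benjamini-Hochberg adjustment over all genes kept. The planned test assumed CPM and was applied to the scaled CPM. edgeR 4.0.16 and DESeq2 1.42.0 were run on recovered reads, and the fits were tested on simulated data. The simulated data had large changes, the same dispersion for all genes and no deviant library. They therefore do not show how the fits perform with libraries as uneven as these. Exon lengths and positions are from GENCODE M21 (GRCm38), matched for all 10 genes; promoters are from RefSeq, matched for 7. Named by rule besides the 10 are up to 4 genes per pathway list, ranked by p, and the 3 genes most alike to Yap1, Wwtr1 and Cyr61. Further genes were named after their values were seen, among them Lats1, Foxf2, and Stk3, Taok2 and Mink1, whose groups did not overlap. Lats2 and Ptpn14 were named because they stand on several lists. The genes and lists were chosen with earlier results of these data known. Floors of 3 reads cover counting error only, since no molecular identifiers were counted. Alternatives were other pseudocounts, filters and scalings, library weights, a prefix term and leaving out libraries.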

Additional observations from a re-analysis of the deposited data

How the results depend on the processing

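No paired analysis was possible because the columns of the 2 groups share only the replicate number 1. The kind of column name was fitted as a term instead, called the prefix term. It counts the combined libraries as a kind of their own, although their names carry no prefix and are not stated to mark a batch. With all libraries limma called 0 genes higher and 0 lower, and 620 and 760 had an unadjusted p under 0.05; edgeR called 0 and 0, with 529 and 703. Library weights gave 1059 higher and 1366 lower, DESeq2 35 and 130, the prefix term 1 and 7, and leaving out both combined libraries 3 and 201. Leaving out each library in turn gave 0 to 2 higher and 0 to 108 lower, the highest counts without vehicle combined. Pseudocounts of 0.1 and 5, no filter, a filter at 5 CPM, TMM and median-of-ratios factors gave 0 and 0. The sign of Amotl2 turned with library weights (-0.21), the prefix term (-0.0223), without both combined libraries (-0.0468) and without 15-HETrE combined (-0.0105, in a range up to 0.36 over libraries left out). Leaving out each library, the log2 fold change ran from -1.18 to -0.21 for Yap1, from -2.35 to -1.11 for Wwtr1, from -2.51 to -1.73 for Tead1, from -3.60 to -1.23 for Tead2, from -1.32 to -0.67 for Tead3, from -1.83 to -0.73 for Cyr61, from -4.74 to -2.03 for Ctgf and, for Ankrd1, from -2.54 to -1.69 over the 4 libraries whose removal keeps it above the filter. Without vehicle 1 or vehicle 2, which hold all its reads, Ankrd1 gave no value. The median of the kept genes was -1.06 over 8 genes without vehicle 2, where Ankrd1 fell out, and -1.89 over 9 without vehicle combined. For the kinases and scaffolds it was 0.01 without 15-HETrE 1. For the genes whose products bind YAP, TAZ, TEAD or LATS it was -0.20 without vehicle combined. The causes were not tested. Vehicle combined, with 5405245 reads, had 0 reads of Tead4, Ankrd1 and Tead2, and 3 reads there are 0.540 CPM. Tead4, the scarcest of these, had 2.38 and 1.98 CPM in vehicle 1 and 2. The vehicle libraries thus differed among themselves, which limits what can be said of these genes between groups.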

Other observations

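Genes of the same list did not follow the same pattern over the libraries. Ctgf, Vgll3, Tpm4 and Wisp1 were far higher in vehicle 1 and 2 than in any other library, whereas Myof, Tagln2 and F3 kept intermediate levels in vehicle combined (40.8, 54.5 and 99.3 CPM). Within the combined pair Myof differed by -5.20 and F3 by -0.05, although both are on the list of further targets. Foxf2, a forkhead factor of pericytes and on the same list, had a difference of -3.36 in the first prefix and of 2.11 in the combined pair. These genes were singled out after their values were seen, and the differences between pairs were not tested.

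Tead2 and its antisense neighbour Cd37 were rarely read together. Cd37 had its highest levels in vehicle combined and 15-HETrE combined (5.22 and 2.43 CPM), where Tead2 had no reads, and had none in vehicle 1, vehicle 2 and 15-HETrE unnumbered, which held 410, 576 and 91 reads of Tead2. Only 15-HETrE 1 had reads of both.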
